A study of Homo sapiens with 4 samples.

Results

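The NKG2D ligands are the cell surface proteins that the activating receptor NKG2D of natural killer (NK) cells recognises. The 8 human genes that encode them, MICA, MICB, ULBP1, ULBP2, ULBP3, RAET1E, RAET1G and RAET1L, were taken by symbol from a table of raw read counts for 58735 genes, and each matched 1 identifier. The labels give the cells as wild-type A549, a line from a human lung adenocarcinoma, grown in medium with serum, and RNA was sequenced after staining for the adhesion molecule ICAM1 and fluorescence-activated sorting. There were 2 libraries of the ICAM1-high subset and 2 of the ICAM1-low subset, with no treatment other than the sort. No label ties the 2 libraries of a subset to different cultures, and the p-values therefore reflect library spread that may be technical. The ICAM1-high libraries held 17638647 and 17271825 counts, the ICAM1-low libraries 16665362 and 16272591.

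NKG2D binds class I-like proteins that healthy epithelium carries at low levels and that many tumours and stressed or infected cells display. MICA and MICB are encoded in the major histocompatibility complex and span the membrane. The ULBP and RAET1 genes form a second cluster on the long arm of the same chromosome. ULBP1, ULBP2, ULBP3 and RAET1L are known mainly as glycosylphosphatidylinositol (GPI) anchored proteins, whereas RAET1E and RAET1G have a transmembrane segment. The ligands differ in how they are induced. In human cells the stress factor ATF4 is known to drive ULBP1 transcription, and the heat shock factor HSF1 acts through elements in the MICA and MICB promoters.

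The promoters of the 3 genes whose values or known heat shock elements are discussed most are shown here, from RefSeq on GRCh38.p14, plus strand. Each stretch begins 250 bases before the RefSeq start site. It ends at that site, or before the first annotated exon that begins within those bases. The MICA and MICB stretches lie inside the annotated spans of their genes, after the first annotated base. In ULBP1, at chr6:149963693-149963942, capitals mark a match to TTGCNTCA, a motif of the kind bound by ATF4 with C/EBP factors. In MICA, at chr6:31403345-31403578, and in MICB, at chr6:31497895-31498085, capitals mark a match to GAANNTTC, the core of a heat shock element.
ULBP1: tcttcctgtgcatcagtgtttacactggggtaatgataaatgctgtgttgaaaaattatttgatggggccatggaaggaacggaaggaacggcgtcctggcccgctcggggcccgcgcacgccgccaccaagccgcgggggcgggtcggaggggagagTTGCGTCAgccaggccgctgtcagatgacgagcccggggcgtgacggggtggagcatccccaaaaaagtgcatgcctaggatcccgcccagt
MICA: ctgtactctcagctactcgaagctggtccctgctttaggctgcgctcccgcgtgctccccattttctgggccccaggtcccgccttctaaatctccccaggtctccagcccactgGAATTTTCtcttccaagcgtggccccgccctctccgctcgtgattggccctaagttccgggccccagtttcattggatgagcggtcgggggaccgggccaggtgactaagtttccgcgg
MICB: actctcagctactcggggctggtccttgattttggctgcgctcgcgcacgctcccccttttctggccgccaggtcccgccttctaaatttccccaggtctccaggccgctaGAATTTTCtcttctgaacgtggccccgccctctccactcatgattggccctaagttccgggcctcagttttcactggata
All 8 ligands had a RefSeq promoter entry, and for RAET1E, which had several, the first was used. On either strand, TTGCNTCA was found in the window of 1 ligand, ULBP1, beginning 92 bases before the start, and in 2.77% of 35116 promoter windows of the same length. GAANNTTC was found in 2 ligands, MICA and MICB, beginning 135 and 139 bases before the start, and in 5.78% of all windows. The windows of MICA and MICB were 72.8% identical without gaps. Of the other motifs searched, the GC box GGGCGG was found in 6 ligands and 42.6% of windows. CCAAT was found in 5 ligands and 32.0% of windows, GCCNNNGGC, an AP-2 motif, in 3 and 19.8%, and TGACG, the core of a cAMP response element, in 2 and 21.2%. TGACG overlaps the TTGCNTCA match of ULBP1. The motifs were chosen with the sequences and fold changes known, and a match is a description of these letters, not evidence that a factor was bound.

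The sort was checked first. ICAM1 (chromosome 19) was at 115.5 and 110.4 CPM in both ICAM1-high libraries, against 4.605 and 4.89 CPM in both ICAM1-low libraries. CPM is a count relative to the library's size after scaling by the trimmed mean of M-values (TMM). Fold changes are given in log2 units, as ICAM1-high minus ICAM1-low. A gene was called at a Benjamini-Hochberg adjusted p under 0.05 in edgeR's quasi-likelihood test, adjusted over all 16250 genes tested, and all adjusted p-values are from that test. By this rule 59.7% of genes were called, 30.4% higher and 29.4% lower, and 10.8% were higher and 4.71% lower by at least 2-fold. Epithelial keratins were abundant in both subsets, with KRT8 at 3074 ± 85.3 CPM in ICAM1-high, against 1290 ± 31.7 CPM in ICAM1-low (SD, n = 2 each). Of 11 epithelial markers 8 were tested, and 5 were called higher and 2 lower, beside background shares of 30.4% and 29.4%. Those higher were KRT8, KRT18, KRT19, CDH1 and CLDN4, and those lower were KRT7 and EPCAM. KRT7 was at a mean of 603 CPM in ICAM1-high, against 1245 CPM in ICAM1-low. EPCAM was at 2.79 CPM in ICAM1-high, against 4.32 CPM in ICAM1-low. Of 4 lung lineage markers, NKX2-1, SFTPB and SFTPC were under 1 CPM in each library, and NAPSA was at 1.02 and 1.63 CPM in ICAM1-high and at 1.34 and 1.11 CPM in ICAM1-low. A549 carries a known homozygous deletion of CDKN2A, yet that gene had 1009 and 1214 counts in ICAM1-high, against 0 and 0 counts in ICAM1-low. Its deleted neighbours showed the same, with 174 and 182 counts of CDKN2B in ICAM1-high, against 0 and 0 in ICAM1-low. MTAP had 459 and 463 counts in ICAM1-high, against 1 and 8 in ICAM1-low. These counts go against the cell line label of the ICAM1-high libraries, so for every ligand a difference of state within A549 and a difference of cells cannot be told apart. In bulk RNA, likewise, fewer cells that express a gene and less of its RNA per cell cannot be told apart.

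Among the 8 ligands, ULBP1 fell sharply in ICAM1-high, MICB rose 2.72-fold and ULBP3 rose 1.71-fold. MICA, ULBP2, RAET1E, RAET1G and RAET1L did not pass the test. All 8 passed the expression filter, and each was above 1 CPM in every library. The 2 members called higher and the 1 called lower stand beside background shares of 30.4% and 29.4%. The median log2 fold change was 0.17 over the 8 ligands and 0.01 over all genes tested. The libraries of the subsets did not overlap for 6 of the 8 ligands, a separation that 78.3% of all genes tested showed.

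**Figure D1:**
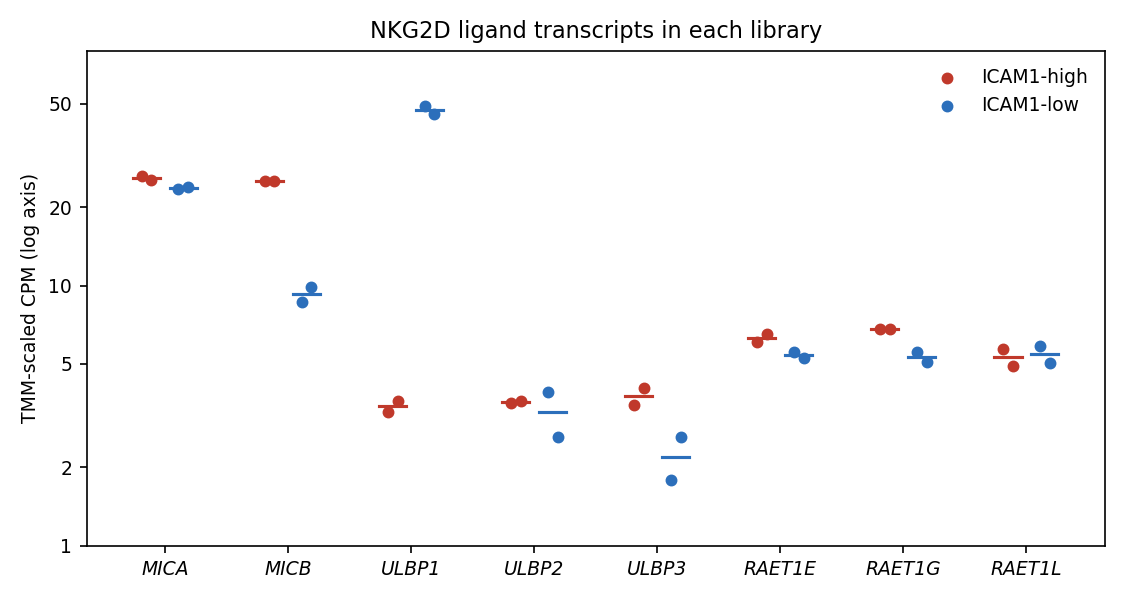
TMM-scaled CPM (log axis) of the 8 NKG2D ligands, with 1 point per library and a bar at the mean of each subset of 2 libraries, ICAM1-high in red and ICAM1-low in blue. ULBP1 is at 3.27 and 3.59 CPM in ICAM1-high and at 48.9 and 45.5 CPM in ICAM1-low, MICB is separated the other way, and the points of ULBP2 and RAET1L overlap.

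MICA and MICB are near relatives that both span the membrane, yet they differed here. MICB (ENSG00000204516, chromosome 6, 31494881 to 31511124, GRCh38) was at 25.3 and 25.2 CPM in the ICAM1-high libraries and at 8.63 and 9.91 CPM in the ICAM1-low libraries. Both ICAM1-high libraries lay well above both ICAM1-low libraries. The log2 fold change of MICB was 1.44 (standard error, SE, 0.12, adjusted p = 7.68e-18). Of all genes tested, 6.92% were called higher by at least as much.
MICA (ENSG00000204520, chromosome 6, 31399784 to 31415315) was at 26.3 and 25.4 CPM in ICAM1-high and at 23.5 and 23.9 CPM in ICAM1-low. Its libraries did not overlap, but the groups lay close together. The log2 fold change of MICA was 0.13 (95% interval -0.06 to 0.31, adjusted p = 0.249), which allows a rise of up to 1.24-fold. Scaled by library size alone, MICA was called higher, at 0.30 (adjusted p = 0.00429). That scaling shifted the median of all genes by 0.17. The shift follows from the change of scaling and cannot show which scaling is right, so the MICA call depends on the scaling.
Within a library the ratio of MICB to MICA needs no scaling between libraries. Per kilobase of exon, it was 0.820 and 0.844 in ICAM1-high and 0.313 and 0.354 in ICAM1-low. The ratio thus differed between the subsets by far more than between libraries of a subset, although an exact permutation test of 2 libraries against 2 cannot give a two-sided p under 0.333.

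ULBP1 (ENSG00000111981, chromosome 6, 149964007 to 149973710) had 61 and 66 counts in the ICAM1-high libraries and 765 and 698 counts in the ICAM1-low libraries. These were 3.27 and 3.59 CPM in ICAM1-high, against 48.9 and 45.5 CPM in ICAM1-low. Both ICAM1-high libraries were low and close together. ULBP1 was 13.7-fold lower in ICAM1-high, a log2 fold change of -3.78 (SE 0.12, 95% interval -4.02 to -3.54, adjusted p = 4.76e-39). Of the 16250 genes tested, 2 were called lower by at least as much, ULBP1 included, which is 0.0123%. ULBP1 is the ligand whose promoter, above, holds the TTGCNTCA match. The same window also holds GC box, AP-2 and TGACG matches. Whether any of these matches bears on the fall was not tested.

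ULBP3 (ENSG00000131019, chromosome 6, 150063150 to 150069095) was at 3.49 and 4.03 CPM in ICAM1-high and at 1.79 and 2.61 CPM in ICAM1-low. The ICAM1-high libraries were above the ICAM1-low libraries, with a visible spread within each subset. The log2 fold change of ULBP3 was 0.77 (SE 0.26, adjusted p = 0.00925). It rested on 65 and 74 counts in ICAM1-high and on 28 and 40 counts in ICAM1-low. The call was lost without ICAM1-high replicate 2 (log2 fold change 0.66, adjusted p = 0.0817) and without ICAM1-low replicate 1 (0.52, adjusted p = 0.157), and in DESeq2 (0.76, adjusted p = 0.164).

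The other 4 genes of the cluster were not called. RAET1G (ENSG00000203722, chromosome 6, 149916878 to 149923121) was at 6.81 and 6.81 CPM in ICAM1-high and at 5.56 and 5.09 CPM in ICAM1-low, with no overlap. Its log2 fold change was 0.35 (95% interval -0.01 to 0.72, adjusted p = 0.0891). RAET1E (ENSG00000164520, chromosome 6, 149883375 to 149898102) was at 6.06 and 6.53 CPM in ICAM1-high and at 5.56 and 5.28 CPM in ICAM1-low, also without overlap.
The log2 fold change of RAET1E was 0.22 (95% interval -0.15 to 0.59, adjusted p = 0.324). RAET1G was called with 2 other settings, at 0.53 by library size alone and at 0.40 (adjusted p = 0.0485) among genes of at least 1 CPM in both ICAM1-low libraries.
ULBP2 (ENSG00000131015, chromosome 6, 149942000 to 149949235) was at 3.54 and 3.59 CPM in ICAM1-high, between the 3.90 and 2.61 CPM of the ICAM1-low libraries. RAET1L (ENSG00000155918, chromosome 6, 150018334 to 150025532) was at 5.69 and 4.90 CPM in ICAM1-high and at 5.88 and 5.02 CPM in ICAM1-low. For both genes the subsets overlapped. The 95% interval of the log2 fold change was -0.36 to 0.62 for ULBP2 and -0.43 to 0.34 for RAET1L, so changes within those bounds cannot be told from 0 in these libraries.

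**Figure D2:**
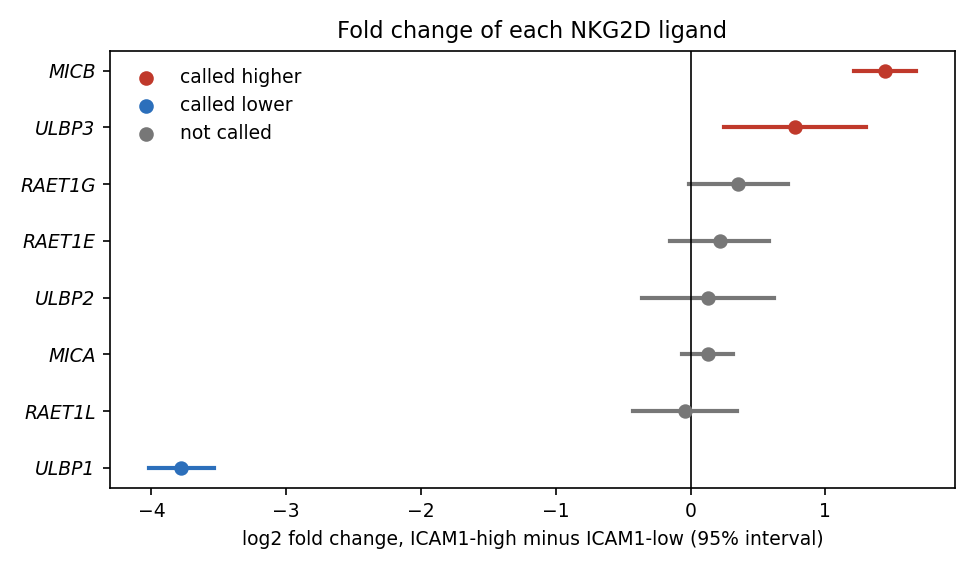
Log2 fold change of each ligand, ICAM1-high minus ICAM1-low, with its 95% interval from the edgeR fit, red where called higher, blue where called lower and grey where not called. ULBP1 stands apart at -3.78, MICB is at 1.44 and ULBP3 at 0.77, and the intervals of the other 5 include 0.

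Levels of different ligands were compared per kilobase of exon, as CPM per kb (RPKM). In ICAM1-high the order began with MICA, at 10.8 ± 0.255 RPKM, and MICB, at 9.01 ± 0.0288 RPKM (SD, n = 2 each). RAET1G, RAET1L, ULBP3, ULBP2 and RAET1E followed between 4.58 and 2.10 RPKM, and ULBP1 was last, at 1.09 ± 0.0722 RPKM. Of these neighbours in the order, RAET1L and ULBP3 overlapped between libraries.
In ICAM1-low, ULBP1 came first, at 15.03 ± 0.769 RPKM, and MICA next, at 9.93 ± 0.0967 RPKM. RAET1L, RAET1G and MICB then lay between 4.05 and 3.31 RPKM, with each overlapping the next. ULBP2, ULBP3 and RAET1E, between 2.41 and 1.805 RPKM, likewise overlapped. ULBP1 was thus the first of the 8 in ICAM1-low and the last in ICAM1-high, and MICB was the fifth in ICAM1-low and the second in ICAM1-high. With the longest transcript in place of all exons these 2 genes kept their ranks and MICA kept the first rank in ICAM1-high and the second in ICAM1-low.
The summed level of the 8 ligands was 38.1 and 37.9 RPKM in ICAM1-high and 43.2 and 41.5 RPKM in ICAM1-low. ULBP1 made up 2.74% and 3.015% of that sum in ICAM1-high, against 36.05% and 34.9% in ICAM1-low. MICA and MICB contributed 28.5% ± 0.595 and 23.7% ± 0.0121 in ICAM1-high, and 23.5% ± 0.889 and 7.84% ± 0.982 in ICAM1-low (SD, n = 2 each). The order of the sums rests on the scaling. With library size alone, an alternative chosen after seeing the data, they were 40.3 and 40.4 RPKM in ICAM1-high and 40.6 and 39.2 RPKM in ICAM1-low, and overlapped. The shares do not depend on the scaling between libraries. MICA and MICB took the leading shares in ICAM1-high, and ULBP1 and MICA in ICAM1-low.

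**Figure D3:**
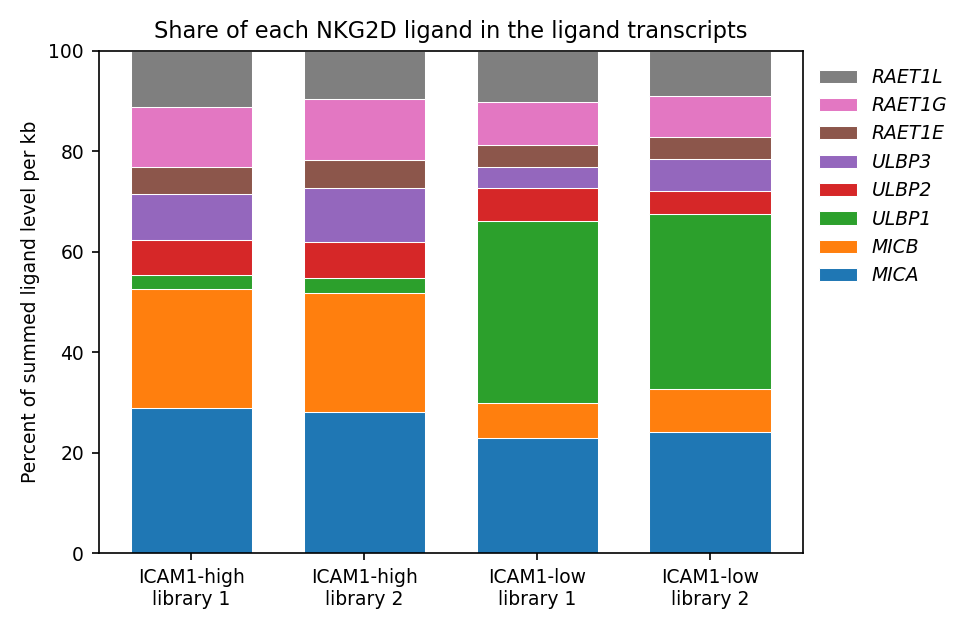
Share of each ligand in the summed level per kb of exon of the 8 NKG2D ligands, 1 stacked bar per library, ICAM1-high libraries on the left. ULBP1 (green) takes 2.74% and 3.015% of the ICAM1-high bars and 36.05% and 34.9% of the ICAM1-low bars, and MICB (orange) is taller in ICAM1-high.

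The family is partly repetitive, which limits the smaller values. Of the 100-base stretches of their annotated transcripts, 11.9% of those of ULBP2 and 11.8% of those of RAET1L also occur in another gene, almost all in each other. The share was 4.38% for RAET1G, 6.86% for ULBP3 and 1.15% for ULBP1, the last 2 with the pseudogene RAET1K. It was 0% for MICA and MICB. Of 50-base stretches the shares were larger, at 32.2% for ULBP2, 31.5% for RAET1L, 18.3% for RAET1G, 12.35% for ULBP3, 6.85% for ULBP1, 2.94% for MICB and 2.64% for MICA. The read length is not stated in the labels, so which of these applies is unknown. RAET1E shares 1050 bp of its 3004 bp of exons with an overlapping gene model, ENSG00000285991, which had 13 and 8 counts in ICAM1-high and 5 and 6 counts in ICAM1-low. HCP5 shares 62 bp (2.6%) of the MICA exons on the same strand. It had 108 and 102 counts in ICAM1-high and 15 and 9 counts in ICAM1-low. RAET1E-AS1, on the opposite strand, shares 138 bp (9.3%) of the RAET1G exons. The sources used here do not say how the authors assigned such reads, and ULBP2, RAET1L, RAET1G and RAET1E above all are uncertain for that reason. RAET1K itself had 19 and 14 counts in ICAM1-high and 8 and 8 counts in ICAM1-low, and was not called. MICD, a pseudogene of the MIC family, had 22 and 16 counts in ICAM1-high and 50 and 37 counts in ICAM1-low. It fell by 1.445 (adjusted p = 0.00014), in the direction opposite to MICB. MICE, a further MIC pseudogene, leaned the same way as MICB, with 9 and 8 counts in ICAM1-high and 1 and 2 counts in ICAM1-low. It did not pass the expression filter.

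Position was examined because the ligands lie in 2 clusters. MICA and MICB are 111 kb from end to end and lie beside classical class I genes. Of 21 other protein-coding genes tested within 250 kb, 10 rose and 3 fell, with a median log2 fold change of 0.20, where 30.4% of all genes tested were called higher and 29.4% lower. HLA-B, an antigen-presenting class I heavy chain named here for its position, rose by 2.59, and HLA-C by 1.23. The ULBP and RAET1 genes span 186 kb. Of the 5 other coding genes tested within 250 kb, 3 fell and 2 were not called, against 29.4% of all genes called lower, with log2 fold changes between -0.71 and 0.06. With 5 genes no reading of that share is possible. The neighbours of ULBP1 within the cluster, ULBP2 and RAET1L, were at 0.13 and -0.04. No other coding gene tested in this window fell by as much as ULBP1.

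**Figure D4:**
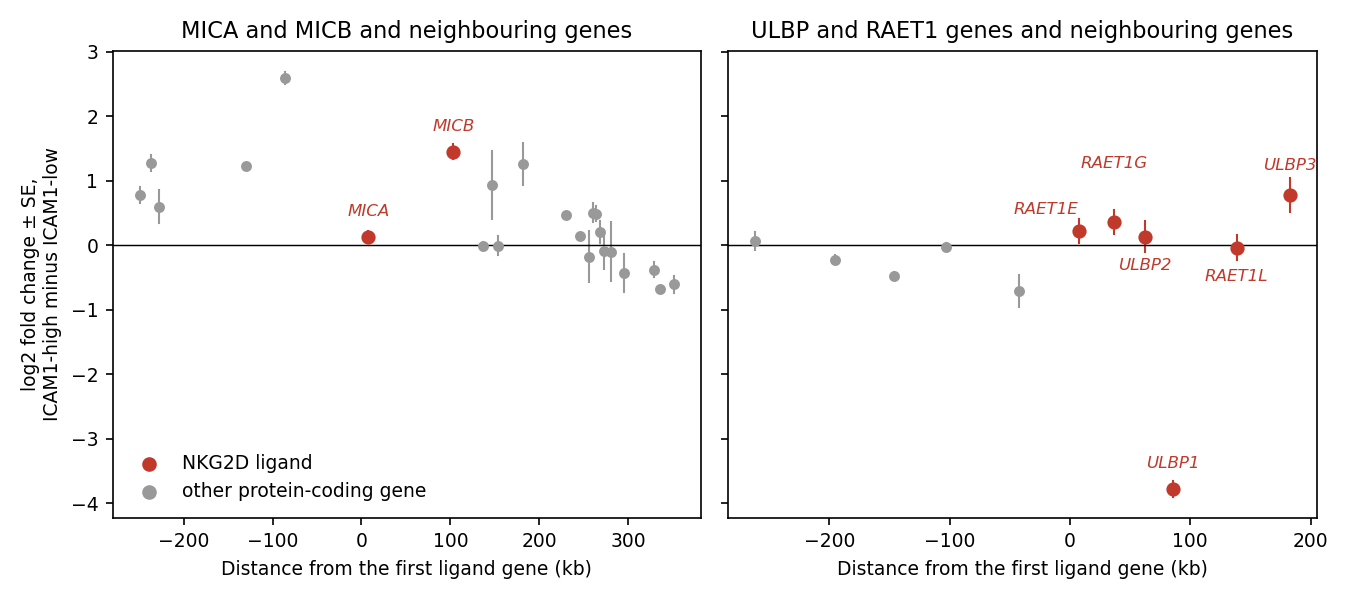
Log2 fold change, ICAM1-high minus ICAM1-low, with its SE, of tested protein-coding genes against distance in kb from the first ligand gene, for MICA and MICB on the left and the ULBP and RAET1 genes on the right. Ligands are red and other genes grey. ULBP1 lies at -3.78 among neighbours between -0.71 and 0.77.

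For each ligand called with at least a 2-fold difference, the 3 genes most like it were sought among 11200 genes. These had a mean of at least 5 CPM over the 4 libraries, which a gene can reach through 1 subset. Likeness was the distance between centred log2 CPM profiles over the 4 libraries. ULBP1 had no close match. Its nearest were the fucosyltransferase gene FUT1 (distance 0.58, log2 fold change -3.70), the EGFR ligand gene EREG (0.73, -3.09) and the stanniocalcin gene STC2 (0.86, -2.93). FUT1 had only 12 and 19 counts in ICAM1-high, against 142 and 198 in ICAM1-low, and reached the mean through ICAM1-low. MICB had close ones in PLEKHA2 (distance 0.02), PLEKHG5 (0.04) and TRANK1 (0.05), with log2 fold changes of 1.45, 1.45 and 1.40. With 4 libraries in 2 subsets, this likeness reflects mainly the size of the subset difference.

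Genes known to control the ligands were examined as a list of 20 regulators, all tested. Of these, 8 rose and 6 fell, and their median was 0.08, beside a background of 30.4% of genes called higher and 29.4% lower. The count is not read as a result about the list, and single regulators are given for their known roles. ATF4, which drives ULBP1 transcription, was at 311 and 328 CPM in ICAM1-high and at 473 and 461 CPM in ICAM1-low. The log2 fold change of ATF4 was -0.55 (SE 0.04, adjusted p = 2.76e-19). HSPA13, a stress chaperone reported to support ULBP1 expression, fell by 1.06 (SE 0.06), at 62.7 and 59.4 CPM in ICAM1-high against 127 and 128 CPM in ICAM1-low. The splicing factor gene RBM4, also tied to ULBP1, was not called, at 0.02. TFAP2A, which encodes AP-2 alpha, known as a repressor of the ULBP1 promoter, was at 68.6 and 80.9 CPM in ICAM1-high and at 28.5 and 31.2 CPM in ICAM1-low. It rose by 1.33 (SE 0.08, adjusted p = 2.00e-23). SP1, an activator of that promoter, fell by 0.17.
The cell cycle factors E2F1 and E2F2, of a family known to raise Raet1 transcription in mouse, rose by 0.95 and 0.96, whereas E2F3 was not called. In the DNA damage response, which can induce ligands, ATR rose by 0.38 and CHEK2 by 0.46, and ATM (-0.07) and CHEK1 (0.12) were not called. MYC rose by 0.23. NFKB1 fell by 0.65 and RELA by 0.13, both NF-kB subunits linked to MICA transcription. STAT3 and HDAC3, described as repressors of ligand genes, rose by 0.10 and 0.20, and DICER1 was not called, at 0.11. HSF1 was at -0.00 (95% interval -0.12 to 0.11) and was not called.

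The lists of ATF4 response and heat shock genes each moved in 1 direction. All 12 tested genes of 13 listed ATF4 response genes fell, with a median of -1.69, against a background of 29.4% of genes called lower. The kinase-like regulator TRIB3 was at 114 ± 2.14 CPM in ICAM1-high, against 498 ± 0.0389 CPM in ICAM1-low (SD, n = 2 each). The serine synthesis enzyme gene PSAT1 fell by 1.75, the phosphatase subunit gene PPP1R15A by 1.87 and the lipoprotein receptor gene VLDLR by 1.96. All 10 heat shock genes rose, with a median of 0.92, against 30.4% of genes called higher. The chaperone gene HSPA8 was at 1628 ± 14.1 CPM in ICAM1-high, against 167.5 ± 3.10 CPM in ICAM1-low (SD, n = 2 each), and HSP90AA1 rose by 1.34. HSPA1A and HSPA1B rose by 3.61 and 3.47, but these near-identical genes may share reads. ULBP1 fell in the same libraries as the ATF4 response list, and MICB rose in the same libraries as the heat shock list. MICA, which shares the heat shock core, did not pass the test. Whether either list bears on the ligands was not tested.

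**Figure D5:**
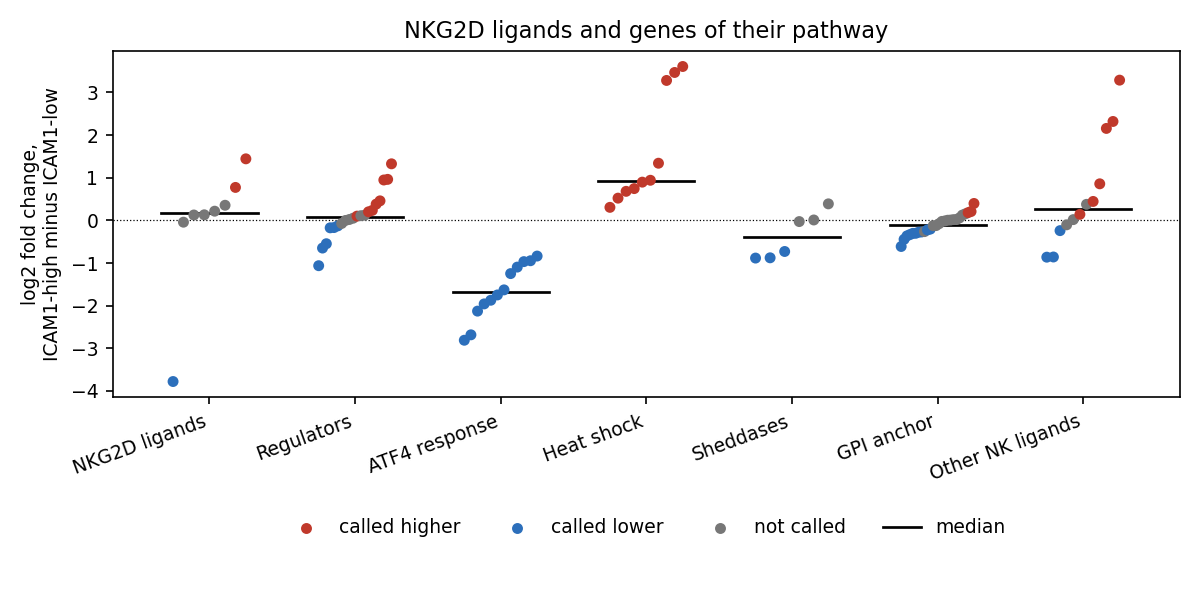
Log2 fold change, ICAM1-high minus ICAM1-low, of each tested gene of the ligand list and of 6 lists of related genes, red where called higher, blue where called lower and grey where not called, with a black bar at the median of each list. The ATF4 response genes lie below 0 (median -1.69) and the heat shock genes above it (median 0.92), while the 8 ligands have a median of 0.17.

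Enzymes that release ligands from the surface were measured next. Of 6 sheddase and helper genes tested, 3 fell and the other 3 were not called, with a median of -0.38, against 29.4% of all genes called lower. ADAM17, a metalloprotease that cleaves MIC and ULBP proteins, was at 85.6 and 78.6 CPM in ICAM1-high and at 151 and 151 CPM in ICAM1-low. It fell by 0.88 (SE 0.05, adjusted p = 3.98e-23), ADAM9 also by 0.88 (SE 0.04) and MMP14 by 0.73 (SE 0.23). ADAM10, the other main sheddase, was at -0.03 (95% interval -0.11 to 0.06), and PDIA6, which helps MICA shedding, at 0.01. Neither was called. MMP2 leaned higher, at 3.11 and 2.12 CPM in ICAM1-high and at 2.11 and 1.89 CPM in ICAM1-low. The log2 fold change of MMP2 was 0.39 (95% interval -0.19 to 0.97), and it was not called. MMP9 had 9 and 9 counts in ICAM1-high and 0 and 2 counts in ICAM1-low. It did not pass the expression filter. Of 26 GPI anchor genes tested, 10 fell and 3 rose, against 29.4% of all genes called lower and 30.4% higher, with changes between -0.61 and 0.40 and a median of -0.10. PIGF fell by 0.61, PIGO by 0.45, PIGU by 0.36 and PIGG by 0.28. Scaled by library size alone, 9 GPI anchor genes rose and 3 fell, so the balance within this list depends on the scaling.

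Of 12 tested ligands of other NK cell receptors, 6 rose and 3 fell, with a median of 0.26, against 30.4% of all genes called higher and 29.4% lower. The costimulatory ligand gene TNFSF9, whose product binds CD137, was at 30.9 and 30.4 CPM in ICAM1-high and at 3.65 and 2.61 CPM in ICAM1-low, a rise of 3.29 (SE 0.14). CD70, the ligand of CD27, rose by 2.32 (SE 0.18), and CEACAM1, an inhibitory adhesion molecule, by 0.86 (SE 0.08). PVR, a ligand of the activating receptor DNAM-1, was at 155 and 155 CPM in ICAM1-high and at 279 and 284 CPM in ICAM1-low, a fall of 0.86 (SE 0.05, adjusted p = 6.69e-27). On the receptor side, KLRK1, which encodes NKG2D, had 0 and 2 counts in ICAM1-high and 0 and 3 counts in ICAM1-low, and its adaptor HCST had 0 counts in each library.

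Markers of other cell types were counted in the same libraries. Of 13 NK cell and leukocyte markers, 12 were under 1 CPM in each library, and PTPRC, PRF1, CD3D and CD3E were at 0 in all 4. The remaining one, CD14, rose by 0.98. Of 13 fibroblast markers 8 were tested and 6 rose, against 30.4% of all genes called higher. Their summed level was 80.5 and 91.9 CPM in ICAM1-high and 48.5 and 52.0 CPM in ICAM1-low. Most of each sum was FBLN1, at 45.4 and 52.3 CPM in ICAM1-high and at 42.15 and 43.75 CPM in ICAM1-low. COL1A1 had 505 and 551 counts in ICAM1-high and 60 and 66 counts in ICAM1-low, and LUM had 43 and 56 counts in ICAM1-high and 3 and 5 counts in ICAM1-low. COL1A2, COL3A1 and POSTN had 0 counts in both ICAM1-high libraries. Of 11 endothelial markers 5 passed the filter (4 higher, 1 lower), beside the same background share, with a summed level of 26.6 and 30.7 CPM in ICAM1-high and 9.72 and 8.74 CPM in ICAM1-low. ENG had 284 and 346 counts in ICAM1-high and 64 and 44 counts in ICAM1-low. ERG had 37 and 52 counts in ICAM1-high and 0 and 0 counts in ICAM1-low, and CDH5 had 37 and 27 counts in ICAM1-high and 0 and 1 counts in ICAM1-low. VWF had 0 and 5 counts in ICAM1-high and 0 and 0 in ICAM1-low. Some of these markers, such as FAP with 17 and 25 counts in ICAM1-high and 0 and 1 counts in ICAM1-low, passed the filter through ICAM1-high. The part of fibroblast-like or endothelial-like RNA in the ligand differences was not tested.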

How the data were processed

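RNA-seq libraries had been made with a SMARTer kit from Trizol-extracted total RNA, per the labels' protocols. The authors deposited raw counts per gene in 1 table with a column per library. FastQC 0.10.1 and GRCh38 are named in the submitters' processing notes. The sources used here do not give the aligner, the counting program or its strand setting. All 58735 identifiers were in GENCODE release 29, the source of positions and exon lengths, and 58207 had a symbol. Of 159 gene list entries, 158 matched an identifier.

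Counts were compared with edgeR 4.0.16 (R 4.3.3), using the robust quasi-likelihood test, TMM scaling and the default filter (minimum count 10, minimum total 15). TMM factors were 1.059 and 1.065 in ICAM1-high and 0.9395 and 0.9439 in ICAM1-low. The fold change's SE was its size divided by the square root of F. Named were all ligands, ICAM1, the genes A549 lacks, the regulators and the sheddase list. Of each other pathway list up to 4 members were named by adjusted p, and for likeness the 3 nearest profiles. The values of 1 regulator are not reported here. Other names, cell type markers among them, were chosen by position or as descriptions. The members and lists were chosen with earlier results of these data known. The fit was tested on simulated data. Far fewer genes were changed there than were called here, so that test cannot judge the scaling of these data. Alternatives included DESeq2 1.42.0 and limma-voom (limma 3.58.1). Libraries of a subset differed by more than sampling noise (chi-square per degree of freedom 3.07 for ICAM1-high and 1.86 for ICAM1-low). Intervals of the fit reflect 2 libraries a subset.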

Additional observations from a re-analysis of the deposited data

How the results depend on the processing

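ULBP1 and MICB kept their direction and their call under all 13 alternatives, with log2 fold changes from -3.85 to -3.61 and from 1.34 to 1.62. Scaling by library size alone shifted the median of all genes by 0.17 and gave 6735 genes higher and 3124 lower, so that 68.3% of calls were higher in place of 50.8%. Under it 4 ligands were called higher, MICA at 0.30 and RAET1G at 0.53 among them, RAET1L was at 0.13, and the log2 ratio of the summed ligand level was 0.017 in place of -0.16. In the lists it gave 12 regulators higher and 3 lower, in place of 8 and 6. It also gave 2 sheddases higher, and 9 GPI anchor genes higher and 3 lower. Among genes of at least 1 CPM in both ICAM1-low libraries, RAET1G was called at 0.40, RAET1L was at 0.0025 and 6 GPI anchor genes were lower. With no filter 1 sheddase was higher. DESeq2 called 1 ligand higher, ULBP3 being lost at 0.76, and 0 GPI anchor genes higher (3 in edgeR) and 5 lower.

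Leaving out each library in turn, with a lone library assumed to vary like the other subset, gave 1 to 2 ligands called higher. ULBP3 was then at 0.52 to 1.06, ULBP2 at -0.14 to 0.44 and RAET1L at -0.16 to 0.07, with single values of 0.057 and 0.068 for RAET1L and -0.14 for ULBP2 on the other side of 0. Regulators lower numbered 3 to 6, GPI anchor genes higher 1 to 3 and lower 6 to 10. Same-numbered libraries did not deviate together (correlation 0.04). With 2 libraries a subset, this cannot settle whether they share a culture or a sort. With the number as a replicate block, 4976 genes were higher and 4836 lower, with 2 ligands higher and 1 lower. With the longest transcript as length, ULBP2, ULBP3, RAET1E, RAET1G and RAET1L changed rank. The lowest ligands had 28 to 74 counts a library, which limits ULBP2 and ULBP3. The cause of these differences was not tested.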
